A study of Mus musculus with 4 samples.

Results

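Fragments of ribosomal RNA that were bound to the Argonaute (Ago) proteins of the mouse brain are described here. Ago proteins are the core of the RNA-induced silencing complex (RISC) and hold short RNAs, mostly miRNAs. The fragments were taken as all sequences of the deposited table that carry no miRNA name and were matched to an rRNA but not to a tRNA. This gave 2321 of 85704 sequences, under 19 database records of rRNA. They carry 826 of the 3925 seeds in the table.

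RNA came from combined cortex and hippocampus of male C57BL/6J mice, with no treatment or genetic change named in the labels. The groups were 2-month-old and 18-month-old animals, with 2 libraries each. Ago complexes were pulled down with a GW182 peptide, which binds all Ago proteins, and RNA of 19 to 35 nt was cut from a gel before the libraries were made (Ago-RP-Seq). The pull-down holds RNA from every cell type of the tissue, and fewer cells of a type and less RNA per cell cannot be told apart. Nothing in the labels says how many animals went into a library, so p-values measure the spread between these libraries.

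Ribosomes contain 4 rRNAs in the mouse cytoplasm. The 18S rRNA builds the small subunit, and the 28S, 5.8S and 5S rRNAs belong to the large subunit. The 18S, 5.8S and 28S rRNAs are cut from a common precursor, the 45S pre-rRNA, whose spacers are discarded, and in the ribosome the 3′ end of 5.8S rRNA pairs with the 5′ end of 28S rRNA. Mitochondrial ribosomes hold a 12S and a 16S rRNA encoded by the mitochondrial genome. A short RNA in the RISC finds its targets through its 6mer seed, positions 2 to 7. Each seed in the table has a viability, the mean over 3 mouse cell lines in percent of control cells, from a screen of seeds. A low viability marks a toxic seed, and values can pass 100.

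The sequences below are the most abundant fragment of each major start, since a few starts held most of the signal. They are written 5′ to 3′ as DNA, and capitals mark the seed.
5.8S start 1: tACGCCTgtctgagcgtcgctt
5.8S start 2: aCGCCTGtctgagcgtcgcttt
5.8S start 3: tCCTCCCggggctacgcctgtct
5.8S start 4: cCTCCCGgggctacgcctgtctga
5.8S start 5: cTACGCCtgtctgagcgtcgctt
28S start: cGCGACCtcagatcagacgtgg
18S start: tACCTGGttgatcctgccagt
18S inner: tTTCGATggtagtcgccgtgc
45S record: cCTCCACccgcgcgtcgttccc
Untyped record: cCACGGCtgtctctccagccaga
Mitochondrial 16S start: aCTAATCctagccctagccct
Starts 1, 2 and 5 of 5.8S lie 1 base apart, so that neighbouring starts share nearly all their bases and still present different seeds. Starts 3 and 4 lie 12 and 11 bases upstream of start 1 and run into the same stretch. By textbook knowledge, the 28S and 18S starts are the 5′ ends of the mature rRNAs, and the 5.8S stretch is the 3′ end of its rRNA. The mitochondrial fragment matched exactly to base 1 to 21 of the mitochondrial 16S rRNA gene mt-Rnr2 (1582 nt), at chrM:1094-1114 on the + strand of GRCm38.

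rRNA fragments were a small part of the RISC content. They held 12006 and 13915 reads in the 2-month-old libraries and 9850 and 10162 reads in the 18-month-old libraries. This was 0.115% (95% Wilson interval 0.112% to 0.117%) and 0.122% (0.120% to 0.124%) of reads in the younger libraries, against 0.0931% (0.0913% to 0.0950%) and 0.112% (0.110% to 0.114%) in the older ones. Among reads without a miRNA name they held 3.44% and 3.65% in the younger libraries and 2.84% and 3.30% in the older ones. The intervals cover counting error only. The library totals behind these shares were 9067007 to 11388999 reads, and 3 reads were worth 0.263 to 0.331 CPM (counts scaled to the same total in each library).

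Summed over all fragments, the level was 1145 and 1222 CPM in the 2-month-old libraries and 931 and 1121 CPM in the 18-month-old libraries. Values are given in this order throughout, replicate 1 before replicate 2. Both older libraries lay below both younger ones. The means were 1183 ± 54.3 CPM and 1026 ± 134 CPM (SD, n = 2), a log2 ratio of -0.21, and the exact two-sided permutation test gave p = 0.33, the smallest value that 2 against 2 libraries allow. The difference of mean log2 values was -0.211, and -0.0777 without 18-month replicate 1. mRNA fragments of the same table overlapped between the ages (4075 and 4862 CPM against 3875 and 4113 CPM). tRNA fragments did not overlap and were higher at 18 months, with 5396 and 5466 CPM against 6514 and 5816 CPM (log2 ratio 0.18, exact permutation p = 0.33).

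Markers of other cells differed between libraries as well. The summed level of the neuronal miRNAs miR-124-3p, miR-9-5p and miR-128-3p was 169186 to 195706 CPM, the highest of the marker sets in every library. Its members differed, with miR-124-3p at 104115 and 107034 CPM in the younger libraries against 98222 and 69405 CPM in the older ones. In the same order, miR-9-5p was at 42830 and 25548 against 27655 and 43876 CPM, and miR-128-3p at 37433 and 62462 against 69829 and 55905 CPM. Red blood cell miRNAs (miR-451a, miR-144-3p) were at 1698 to 3374 CPM, the immune miRNAs miR-223-3p and miR-142a-3p at 49.7 to 63.0 CPM and 239 to 462 CPM, muscle miRNAs (miR-1a-3p, miR-133a-3p, miR-206-3p) at 155 to 234 CPM and the liver miRNA miR-122-5p at 5.01 to 7.11 CPM. The endothelial miR-126a-3p was at 9242 and 8854 CPM in the younger libraries against 2557 and 6489 CPM in the older ones, and its lowest value was in 18-month replicate 1, the library with the lowest rRNA fragment level. Their part in the levels of rRNA fragments was not tested.

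Most of the fragments were rare. Of the 2321 sequences, 1234 were seen in a single library and 296 in all 4, and these 296 held 69.3% of rRNA fragment CPM. The younger libraries showed 1106 and 1103 of the sequences, the older ones 984 and 1082. The most abundant sequence held 5.78% of the CPM, the leading 10 held 30.2% and the leading 50 held 49.6%. A mean of at least 1 CPM was reached by 136 sequences (62.0% of the CPM), and the other 2185 stayed below it.

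By source, 5.8S rRNA and the 45S precursor record gave the most. The deposited names are database records without a type. Types were added by exact matches to the annotation, from a RefSeq table and otherwise from knowledge of the records. The 5.8S records held 32.6% of rRNA fragment CPM in 181 sequences, and the 45S precursor record held 32.5% in 1325 sequences. The 28S records followed with 15.1%, the 18S records with 12.2%, 3 records that could not be typed with 4.58% and mitochondrial 16S with 1.94%. The 45S record also covers the mature rRNAs, so its fragments are not all spacer. Fragments of 5S rRNA summed to 2.93 to 6.85 CPM over the 4 libraries, far below those of 5.8S rRNA, which is of similar length, and those of mitochondrial 12S rRNA to 1.62 to 3.86 CPM.

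The sources were not ordered alike with age. Fragments of 18S rRNA were at 152 and 164 CPM in the younger libraries against 83.3 and 142 CPM in the older ones (log2 ratio -0.49). Fragments of the 45S record were at 383 and 387 CPM in the younger libraries against 310 and 356 CPM in the older ones (log2 ratio -0.21). Both sets did not overlap between the ages and were lower at 18 months, while the untyped records were higher, with 39.9 and 40.1 CPM against 49.2 and 73.2 CPM (log2 ratio 0.61). Each of these comparisons had exact permutation p = 0.33, the smallest possible. On mean log2 values the 18S difference was -0.54, and -0.157 without 18-month replicate 1, so most of it came from that library. That of the 45S record was -0.213, and -0.114 without 18-month replicate 1. That of the untyped records was 0.585, and 0.298 without 18-month replicate 2. Fragments of 5.8S rRNA (356 and 415 CPM against 306 and 362 CPM), of 28S rRNA (186 and 160 CPM against 156 and 164 CPM) and of mitochondrial 16S rRNA (17.4 and 35.8 CPM against 18.0 and 14.3 CPM) overlapped between the ages. The log2 ratio of 28S was -0.11, and on mean log2 values its sign turned to 0.00168 without 2-month replicate 1.

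Starts were strongly concentrated. Overlapping 5.8S fragments formed a single stretch of 136 sequences with 345 CPM, 95.9% of all 5.8S CPM and 31.2% of rRNA fragment CPM. In it, starts 1 and 2 held 37.8% and 30.5% of the CPM, start 3 held 12%, start 4 held 7.96% and start 5 held 5.86%. At the 5′ end of 28S rRNA, 98.4% of an overlapping set of 108 CPM began at the same base, and at the 5′ end of 18S rRNA 98.7% of 57.3 CPM did. Of the mitochondrial 16S CPM, 80.2% began at base 1 of mt-Rnr2, with lengths of 19 to 26 nt. These 4 places together held 47.5% of rRNA fragment CPM in 201 of the 2321 sequences. As a share of all CPM of the source, the most abundant start held 63.7% for 28S, 41.8% for 18S and 11.2% for the 45S record. Fragments of the 45S record had 758 different starts, told apart by the first 15 bases, so base variants at the same position counted as separate starts. Within an overlapping set of the 45S record with 44.4 CPM, 90.7% began at the same base.

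Both the 4 places and the remainder had lower sums at 18 months. The 4 places summed to 533 and 598 CPM in the younger libraries against 441 and 527 CPM in the older ones, and the other 2120 sequences to 611 and 624 CPM against 490 and 594 CPM. Neither sum overlapped between the ages (log2 ratios -0.23 and -0.19, exact permutation p = 0.33 each).

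The fragments had the median length of miRNAs but another base composition. The median was 22 nt for both, and 19.6%, 30.5% and 17.8% of the CPM were 21, 22 and 23 nt long. The share between 19 and 24 nt was 88.7% for rRNA fragments, 99.2% for miRNA-named sequences, 79.0% for mRNA fragments and 75.2% for tRNA fragments. Of the rRNA fragment CPM, 7.42% were of 15 to 18 nt, shorter than the range cut from the gel. The first base was U (T in the table) in 36.3% of rRNA fragment CPM against 72.9% for miRNA-named sequences, and C in 35.3% against 4.73%. GC content was 65.7%, against 45.4% for miRNA-named sequences and 57.1% for mRNA fragments, and it was 4.2 to 7.1 percentage points above that of tRNA fragments. The order held in 4 of 4 libraries for each of these comparisons (exact sign-flip permutation p = 0.125, the smallest that 4 libraries allow). Among rRNA sources, GC content was 82.2% for the rDNA repeat, 71.6% for the 45S record and 51.7% for mitochondrial 16S rRNA.

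Seeds of rRNA fragments were rich in C. Their seed bases were 48.3% C, 24.6% G, 14.5% U and 12.6% A, whereas those of miRNA-named sequences were 24.2% C and 33.2% A. The share of C was 29.1% for mRNA fragments, 41.2% for tRNA fragments and 48.1% for sequences matched to miscellaneous RNA. Seeds rich in C were thus not particular to rRNA fragments. Seeds with at least 4 G held 3.98% of rRNA fragment CPM, against 7.26% for mRNA fragments and 0.540% for tRNA fragments.

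Seed viability of rRNA fragments lay between that of mRNA and of tRNA fragments. The CPM-weighted mean viability was 54.9%, against 51.8% for mRNA fragments, 58.1% for miRNA-named sequences and 61.8% for tRNA fragments, and the order held in 4 of 4 libraries (exact sign-flip permutation p = 0.125 for each). The median was 58.7%, against 55.3% for mRNA fragments, 57.3% for miRNA-named sequences and 67.0% for tRNA fragments. By the median, rRNA fragments thus lay above miRNA-named sequences in 4 of 4 libraries, the opposite of the order by the mean. Seeds under 50% viability held 29.7% of rRNA fragment CPM, against 40.4% for mRNA, 26.6% for miRNA-named and 20.7% for tRNA sequences. Seeds under 30% held 9.92%, 17.8%, 3.93% and 11.2% in the same order of kinds, and seeds of 70% or more held 17.7%, 22.4%, 25.4% and 46.3%.

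Viability differed among rRNA sources. The median was 71.2% for mitochondrial 16S, 61.9% for 5.8S, 58.2% for the 45S record, 57.8% for 18S and 54.5% for 28S rRNA. The untyped records stood lowest among these, with a median of 33.7% and 88.4% of their CPM on seeds under 50%. In the 45S record 37.4% of the CPM lay on such seeds.

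By library, the median viability of rRNA fragments was 59.0% and 61.9% in the younger libraries and 57.8% in both older ones. The means of these medians were 60.5 ± 2.05 and 57.8 ± 0 (SD, n = 2). The CPM-weighted median takes the viability of a single seed, so the SD of 0 is a tie (57.8% is that of ACCUGG). The share on seeds under 50% was 28.3% in both younger libraries and 31.8% and 30.7% in the older ones. Neither measure overlapped between the ages, and exact permutation p was 0.33 for both. The difference in the median was -2.65 percentage points, and it was -4.1 without 2-month replicate 1 and -1.2 without 2-month replicate 2. The CPM-weighted mean viability moved less, from 55.2 ± 0.424 to 54.5 ± 0.283, a difference of -0.7 percentage points. The share on seeds under 30% overlapped, with 11.2% and 9.26% against 10.4% and 8.97%. With every sequence counted once in place of its CPM, the difference in the median (18 months minus 2 months) was 0.15, the opposite direction. These medians were 56.1% in both younger libraries against 56.4% and 56.1% in the older ones, an overlap, so the shift was seen only with weighting by CPM. Without the most abundant start the weighted difference was -2.4 percentage points.

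A few seeds were reached almost only by rRNA fragments. The leading 10 seeds held 53.8% of rRNA fragment CPM. ACGCCU (5.8S start 1) had 132 CPM, and 99.5% of all CPM of the table on this seed was rRNA. For GCGACC (28S) the values were 109 CPM and 96.0%, for CGCCUG (5.8S start 2) 106 CPM and 98.5%, and for ACCUGG (18S) 56.7 CPM and 97.7%. Among the leading 10, the share from rRNA was lower for CUCCCG (85.1%) and CUCCAC (74.4%) and lowest for CCCGGG, with 22.3 CPM that were 21.8% of the CPM on the seed. In all, 106 seeds had at least 50% of their CPM from rRNA, and they held 69.7% of rRNA fragment CPM. Of the rRNA fragment CPM, 0.429% lay on seeds that had 1000 CPM or more in the table. A match of seeds says nothing on whether targets were silenced.

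The most abundant seeds were of moderate viability, and seeds under 30% were carried by rarer fragments. Viability was 65.1% for ACGCCU, 61.9% for CGCCUG, 54.5% for GCGACC and 57.8% for ACCUGG. Of the further leading seeds, CCUCCC (40.9%, 42.3 CPM), CACGGC (33.7%, 25.8 CPM) and UACGCC (44.3%, 20.5 CPM) lay under 50%. CUCCCG (72.8%), CUCCAC (64.0%) and CCCGGG (78.3%) lay above it. Under 30%, the most abundant seeds were AUCCCC of 28S (14.6% viability, 15 CPM), CGCGGC (6.9%, 9.83 CPM), CCGGGC (9.3%, 6.40 CPM) and CCCACC (19.3%, 6.15 CPM). Where a start moved by 1 base the viability could change widely. In the 45S record an overlapping set of 27.3 CPM had fragments with the seed CCCGGG (78.3% viability) and, starting at the next base, fragments with CCGGGC (9.3%).

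For the comparison of ages sequence by sequence, 136 rRNA fragments had a mean of at least 1 CPM. Of these, 82 had a lower mean at 18 months, and the median log2 fold change (on log2(CPM + 1)) was -0.086, against -0.009 over all 14287 sequences tested. At an unadjusted p under 0.05, limma called 4 rRNA fragments higher and 6 lower at 18 months, which was 7.35% of the 136. A fit without 1 library leaves a single library in its group, so it cannot show which library the calls depend on. Over all sequences tested 10.1% were called, 5.87% higher and 4.23% lower, so the share of called rRNA fragments was not above that background. After Benjamini-Hochberg adjustment over all sequences no rRNA fragment passed (the lowest adjusted p was 0.266, and edgeR and DESeq2 called 0 as well), and 0.042% of all sequences did. Of the 136, 21 were higher and 32 lower with no overlap between the ages, and 41.7% of all tested sequences had no overlap.

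The most abundant fragments came from 5.8S rRNA. The 22 nt fragment of start 2, aCGCCTGtctgagcgtcgcttt, was at 71.4 and 87.1 CPM in the younger libraries against 38.8 and 57.9 CPM in the older ones. The groups did not overlap, and limma gave a log2 fold change of -0.72 (SE 0.33, unadjusted p = 0.053, adjusted p = 0.497). The 22 nt fragment of start 1 had 68.4 and 87.2 CPM against 41.7 and 57.5 CPM, with a log2 fold change of -0.65 (SE 0.32, adjusted p = 0.534). In contrast, the 21 nt fragment of the same start, tACGCCTgtctgagcgtcgct, lacks only the last base and had 28.5 and 26.1 CPM in the younger libraries against 47.3 and 38.9 CPM in the older ones (log2 fold change 0.64, SE 0.31, adjusted p = 0.528). None of these 3 fragments passed the test, although in each the ages did not overlap.

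None of the leading fragments of the 28S and 18S starts passed the test, and a difference between these starts was not tested. The 22 nt 28S fragment cGCGACCtcagatcagacgtgg was at 59.8 and 44.3 CPM in the younger libraries against 47.2 and 48.4 CPM in the older ones, an overlap (log2 fold change -0.10, adjusted p = 0.931). Its 23 nt form was at 30.9 and 35.4 CPM against 32.0 and 30.1 CPM. The 18S fragment tACCTGGttgatcctgccagt was at 23.7 and 27.7 CPM against 9.46 and 21.9 CPM (log2 fold change -0.78, SE 0.41, adjusted p = 0.554). Its low value was that of 18-month replicate 1 alone. The 22 nt form of the 18S start was at 11.9 and 11.3 CPM against 5.96 and 13.5 CPM, an overlap.

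Further abundant fragments did not pass the test. The 5.8S fragment cCTCCCGgggctacgcctgtctga had 10.7 and 14 CPM in the younger libraries against 10.1 and 13.8 CPM in the older ones, and cTACGCCtgtctgagcgtcgctt had 8.01 and 7.46 CPM against 7.57 and 7.17 CPM. The 45S fragment cCTCCACccgcgcgtcgttccc had 11.8 and 13.5 CPM against 11.2 and 9.71 CPM. From 28S rRNA, aATCCCCgccgcgcgtcgc carried the most abundant seed under 30% viability and had 14.8 and 8.17 CPM against 12.2 and 9.82 CPM, an overlap. The mitochondrial 16S fragment aCTAATCctagccctagccct had 5.63 and 10.6 CPM against 5.67 and 5.74 CPM, where only 2-month replicate 2 stood out.

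Fragments called higher at 18 months came from 5.8S rRNA and the untyped records. The 5.8S fragment of start 3, tCCTCCCggggctacgcctgtct, was at 10.5 and 11.6 CPM in the younger libraries against 18.7 and 20.4 CPM in the older ones (log2 fold change 0.77, SE 0.31, unadjusted p = 0.0344, adjusted p = 0.455). The untyped cCACGGCtgtctctccagccaga was at 2.00 and 2.37 CPM against 5.01 and 5.84 CPM (log2 fold change 1.01, SE 0.33, unadjusted p = 0.0132, adjusted p = 0.378). Both other fragments called higher began a base further on in the same records and differ from each other at the 3′ end. The fragment cACGGCTgtctctccagccaga was at 0.668 and 1.14 CPM against 2.08 and 3.09 CPM, and cACGGCTgtctctccagccact at 0.954 and 0.615 CPM against 1.42 and 3.75 CPM. So 3 of the 4 came from overlapping sequences of the untyped records, which share bases and are not independent.

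Fragments called lower at 18 months were 3 from the 45S record, 2 from 5.8S rRNA and 1 from the rDNA repeat. The 45S fragment aCCATTCgtagacgacctgcttc was at 8.96 and 11 CPM against 5.49 and 4.52 CPM (log2 fold change -0.87, SE 0.33, unadjusted p = 0.0261, adjusted p = 0.434). From the same record, cCCCGGGcgtcgtcgcgccgt was at 7.25 and 4.04 CPM against 1.80 and 1.65 CPM (log2 fold change -1.24, adjusted p = 0.335). The lowest adjusted p of all rRNA fragments, 0.266, belonged to the 45S fragment cCCTCCTccccccgctgccgc, with 3.43 and 1.67 CPM in the younger libraries against 0.189 and 0.110 CPM in the older ones. These older values stand for fewer than 3 reads each. The rDNA repeat fragment gCCTCGGcccccgcgcggtcg was at 1.43 and 3.42 CPM against 0.567 and 0 CPM (unadjusted p = 0.0092), and 5.8S gCCTGTCtgagcgtcgcttt was at 4.67 and 2.63 CPM against 1.42 and 1.65 CPM. The remaining 5.8S fragment, aCGCCTGtctgagcgtcgctat, was at 1.91 and 3.16 CPM against 1.04 and 0.662 CPM.

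Fragments that begin at the same base share a seed and a source, so they were also summed by their first 15 bases. This gave 1240 groups of rRNA fragments, of which 1228 held no other sequence and 91 of these had a mean of at least 1 CPM. limma called 2 groups higher and 5 lower at an unadjusted p under 0.05. Of all 5051 groups tested 9.58% were called, 4.41% higher and 5.17% lower. No rRNA group passed an adjusted p of 0.05 in this fit (lowest 0.161), nor by edgeR or DESeq2, while 0.238% of all groups did. In other limma fits on all 4 libraries, 1 of 1228 rRNA groups passed with no filter on low values (adjusted p = 0.00677). With the replicate block 1 of 91 passed (adjusted p = 0.0154). Over all groups, 51 of 28083 and 73 of 5051 passed in these 2 fits. The median log2 fold change was -0.161 for the 91 groups and -0.048 over all groups.

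Summed by start, 5.8S start 1 was at 131 and 148 CPM in the younger libraries against 109 and 133 CPM in the older ones (log2 fold change -0.21, adjusted p = 0.837). Start 2, a base further on, was at 117 and 138 CPM against 70.9 and 95.4 CPM, with no overlap (log2 fold change -0.62, SE 0.28, unadjusted p = 0.0503, adjusted p = 0.521). Start 3 went the other way, from 25.5 and 40.0 CPM to 50.7 and 49.5 CPM, again with no overlap (log2 fold change 0.63, SE 0.31, unadjusted p = 0.0621, adjusted p = 0.555). Starts 4 and 5 overlapped between the ages, with 23.3 and 30.4 CPM against 25.8 and 30.4 CPM and with 21.7 and 19.3 CPM against 19.9 and 20.0 CPM. Within the same 5.8S stretch the starts thus had different signs, and none passed the test.

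The 18S start was at 60.6 and 70.3 CPM against 32.2 and 63.0 CPM (log2 fold change -0.52, adjusted p = 0.657), where 18-month replicate 1 stood apart from the other libraries. The 28S start was at 118 and 101 CPM against 101 and 104 CPM and shares its first 15 bases with a sequence outside the rRNA set, so that it was not in the count of groups. The 45S start cCTCCAC was at 38.9 and 44.7 CPM against 39.8 and 37.6 CPM, and the inner 18S start tTTCGAT at 22 and 21.5 CPM against 17.6 and 16 CPM. The latter did not overlap between the ages but did not pass the test.

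Among the called groups, the untyped start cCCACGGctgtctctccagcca had the lowest p. It was at 1.43 and 0.439 CPM in the younger libraries against 5.11 and 4.30 CPM in the older ones (log2 fold change 1.60, SE 0.37, unadjusted p = 0.00104, adjusted p = 0.161). A second untyped start, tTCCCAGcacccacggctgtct, was at 1.24 and 0 CPM against 2.17 and 2.21 CPM. All 83 sequences of the overlapping untyped set, which held 98.2% of the CPM of the untyped records, summed to 38.3 and 40.1 CPM against 47.6 and 72.7 CPM. The 5 groups called lower were 2 of the 45S record (aCCATTC, 10.7 and 12.5 CPM against 6.43 and 5.40 CPM, and tACCCCT, 3.05 and 3.42 CPM against 1.99 and 0.551 CPM), 2 of 18S rRNA and 1 of the rDNA repeat. Both 18S groups were of low level, with cGGCTCC at 1.91 and 3.42 CPM against 0.756 and 1.21 CPM and aCGGGCG at 1.33 and 2.28 CPM against 0.662 and 0.441 CPM. The rDNA repeat start gCCTCGG was at 1.43 and 3.42 CPM against 0.851 and 0.110 CPM.

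Fragments of 5.8S rRNA with the same start differed at the 3′ end, and the deposited table placed them under 2 records, whose named intervals span 157 and 156 bases. Of the fragments of start 1 under the 157-base record, 98.6% of the CPM ended in tt, and of those under the 156-base record 0%. Starts 3 and 4, which end further upstream, were all under the 156-base record. In sum, the 157-base record had 226 and 273 CPM in the younger libraries against 141 and 187 CPM in the older ones (log2 ratio -0.61), and the 156-base record had 130 and 142 CPM against 165 and 176 CPM (log2 ratio 0.33). The differences were of opposite sign with no overlap between the ages, and each had exact permutation p = 0.33. Within start 1 alone, the 157-base record had 84.5 and 112 CPM against 53.2 and 77.5 CPM and the 156-base record 46.3 and 36.5 CPM against 55.5 and 55.9 CPM. At start 1, chosen after its values were seen, forms of 21 nt were 22% and 17.6% of the CPM in the younger libraries against 43.9% and 29.7% in the older ones. Forms of 22 nt or more were 71.5% ± 7.18 of the CPM against 54.7% ± 7.5, again with no overlap (SD, n = 2, exact permutation p = 0.33). At start 2 the form with the same last bases as the 22 nt form of start 1 was 23.2% and 23.6% of the CPM against 28.8% and 21.4%, and the form with a further base was 61.3% and 63.2% against 54.7% and 60.7%. The first of these overlapped between the ages, and the second did not. The start 2 form with the same last bases as the 21 nt form of start 1 was 5.4% and 2.23% of the CPM against 3.73% and 7.98%, an overlap.

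Part of the sequence downstream of a start was not uniform. In groups of at least 2 fragments with a shared start, 12.3% of rRNA fragment CPM differed in at least 1 base from the most common continuation. The share was 10.7% and 11.2% in the younger libraries, against 12.7% and 14.7% in the older ones, and it was 14.5% for mRNA fragments and 18.2% for tRNA fragments. At the untyped start cCACGGC it reached 58.0%, and at the inner 18S start tTTCGAT 38.2%, while at 5.8S start 1 it was 2.53%. The fragments at cCACGGC fell under 2 records, so the 58.0% can hold differences between source sequences.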

How the data were processed

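Ago-RP-Seq was done by the authors on 4 libraries, and reads were trimmed with Trim Galore per the labels. Sequences with few reads were dropped, the others were named by BLAST against small RNA lists of the mouse, and the authors deposited a CPM value per sequence and library. Versions are not given in the sources used here. The deposited viability is a score for each 6mer seed. The methods and labels differ in the tissue mass per pull-down, so none is given. No sequence has fewer than 4 reads in all, so rarer fragments cannot be seen.

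CPM values divided by the worth of 1 read came out whole in 100% of cases. The main model was limma's trend fit on log2(CPM + 1), with age as the only term, over every sequence or 5′ end group (15 identical bases) of the table with a mean of at least 1 CPM. The fit is two-sided, and adjustment was by Benjamini-Hochberg over everything tested. Since the methods name no test for single sequences, limma was chosen here. Fold changes on this scale understate those of low sequences. Library values were compared by exact permutation. Fits were tested on simulated data.

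The deposited names give no rRNA type. Mitochondrial and 5S records were typed by exact match to GENCODE transcripts (GRCm38), 1 28S and the 4.5S record by a RefSeq table, and the others from knowledge of the records, which was not checked against their full sequences. Exact matches placed 219 fragments (4.3% of the CPM). Of these, 164 matched Gm42418, annotated as a lincRNA, which RefSeq lists as an 18S relative. Left out were 6 sequences with both an rRNA and a miRNA name.

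Sequences were named by rule: the 15 most abundant, the most abundant of each record with at least 10 CPM, and the 5 largest rises and falls among called sequences without overlap. The 10 most abundant 5′ groups and seeds were taken too. The other called fragments and groups, the rarer toxic seeds and the 3′ ends were chosen after their values were seen. The members and lists were chosen with earlier results of these data known. Alternatives were the replicate block, other pseudocounts, filters and scaling, limma without the trend, edgeR and DESeq2 on recovered reads, and leaving out each library. Software was limma 3.58.1, DESeq2 1.42.0 and edgeR 4.0.16 under R 4.3.3, and scipy 1.17.1 under Python 3.11.15.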

Additional observations from a re-analysis of the deposited data

How the results depend on the processing

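The total level kept its lower value at 18 months under all 8 alternatives (difference of mean log2 values -0.345 to -0.0777, reported -0.211). That of 28S turned from -0.107 to 0.00168 without 2-month replicate 1, with a range of -0.216 to 0.00168 over the left-out libraries. The same range was -0.326 to -0.084 for 5.8S, -0.311 to -0.114 for the 45S record, -0.923 to -0.157 for 18S, 0.298 to 0.873 for the untyped records and -1.16 to -0.121 for mitochondrial 16S. The 10 sequences called at an unadjusted p became 63 of 2321 without a filter, 2 of 13 at 10 CPM and 5 of 136 by DESeq2. Over all sequences these counts were 3327 of 85704, 424 of 3141 and 941 of 14287. The 7 groups became 36 of 1228, 1 of 15 and 3 of 91 by the same settings. Over all groups they were 1079 of 28083, 170 of 1296 and 311 of 5051. The filters change the number tested, and otherwise the cause was not tested. No rRNA sequence passed an adjusted p in any of the 13 alternatives. Among rRNA groups, 1 of 1228 passed with no filter (0.00677) and 1 of 91 with the replicate block (0.0154). Over all groups, 51 of 28083 and 73 of 5051 passed in these fits. The rRNA group that passed with the block was the untyped start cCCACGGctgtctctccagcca, whose adjusted p in the main fit was 0.161. No label says that a replicate number pairs libraries, and deviations of same-numbered libraries correlated at 0.036 over all sequences and 0.07 over all groups (0.087 and 0.208 for those of rRNA), so they were treated as unpaired. With the replicate block 12 of 136 sequences and 11 of 91 groups of rRNA were called, against 1530 of 14287 and 633 of 5051 over all. Among these rRNA groups were 5.8S start 2 (limma with the block, unadjusted p = 0.0312) and start 3 (unadjusted p = 0.0403). Counting every sequence once turned the difference in median viability from -2.65 to 0.15 and that in the share under 50% from 3.01 to -0.691 percentage points, and a limit of 30% turned the latter to -0.526. With 2 libraries an age, exact tests cannot pass 0.05, and fragments of a few reads are limited by depth.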
